A study of Homo sapiens with 4 samples.

Results

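The 10 genes described here copy, package or repair mitochondrial DNA or supply the deoxynucleotides for it, and none of them passed the test for a difference between TYMP-overexpressing and NC HaCaT cells. They are POLG, POLG2, TWNK, SSBP1, MGME1, TFAM, TK2, DGUOK, RRM2B and MPV17. They were chosen by name for their known roles from the 55536 genes of the deposited table, with earlier results of these data known. All 10 were in the table and had enough reads to be tested. The study asked which genes change in HaCaT, an established line of human keratinocytes, when TYMP is overexpressed. The TYMP group comprised 2 libraries of HaCaT cells given a lentivirus to overexpress TYMP, and the NC group comprised 2 libraries of HaCaT cells labelled NC. The labels do not spell out NC, and they give neither the vector and its promoter nor whether a line was 1 clone. Polyadenylated RNA was collected 48 hours into the protocol, by a clock whose start the labels do not define. Nothing in the labels tells whether replicate libraries were grown separately, so the p-values describe only how far these samples spread, which may be technical.

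TYMP encodes thymidine phosphorylase, which breaks thymidine down to thymine and a sugar phosphate. In people who lack the enzyme, thymidine accumulates and mitochondrial DNA becomes depleted and carries deletions, because mitochondria draw on salvaged deoxynucleosides for their nucleotide pool. Mitochondrial DNA is copied by its own polymerase with a dedicated helicase and a single-strand binding protein, and is packaged by TFAM into nucleoids. TYMP overexpression is the reverse of that loss, and these libraries measured RNA, not mitochondrial DNA or nucleotides.

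The libraries held 16209663 and 16729277 counted reads in TYMP cells, against 17000821 and 16619063 in NC cells. TYMP had 1221 and 1100 reads in TYMP cells, against 281 and 264 in NC cells, so the targeted gene followed the labels. TYMP overlaps its neighbour SCO2, so part of its count is uncertain. Its log2 fold change was 2.10 (SE 0.124), with an adjusted p of 1.47e-06 in edgeR's quasi-likelihood test. Of 10 keratinocyte markers, 4 rose in TYMP cells (KRT5, KRT14, KRT15 and DSG3), where 2.09% of all genes tested rose. TP63, ITGB4, ITGA6, COL17A1, PERP and SFN did not pass the test, with log2 fold changes from -0.05 (COL17A1) to 0.22 (PERP). Reads of all 10 markers summed to 210686 and 211049 in TYMP cells against 170658 and 154570 in NC cells. Markers of fibroblasts, melanocytes, leukocytes and endothelium summed to at most 143 reads per list and library, and COL3A1, TYR and LYZ had 0 reads in all 4 libraries. COL1A1 had 138 and 103 reads in TYMP cells against 86 and 71 in NC cells, and CD14 had 96 and 75 against 43 and 66. CDH5 went the other way, with 36 and 33 against 53 and 38. Of these markers that were tested, all but CDH5 had a log2 fold change above 0, and none passed the test. In bulk RNA, fewer cells of a type and less RNA per cell cannot be told apart.

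Promoter sequence is shown for the genes whose regulators were also measured. The nuclear factors NRF1, GABPA and YY1 are known regulators of nuclear genes of mitochondria. Promoters of RefSeq on GRCh38.p14, 250 bases before to 50 bases after a start site, were found for 8 of the 10 genes (all but TWNK and RRM2B). The letters searched on both strands were GCGC and TGCGC with any 1 base between them for NRF1, CGGAAG for the ETS family to which GABPA belongs, and AAGATGGC for YY1. The windows below are 30 bases long, 5′ to 3′ on the strand of the gene, with the match in capitals.
TFAM, NRF1 letters, chr10:58385337-58385366, plus strand: acgctctcccGCGCCTGCGCcaattccgcc
POLG2, NRF1 letters, chr17:64497049-64497078, minus strand: cacctccgttGCGCCTGCGCcgtggcctct
DGUOK, ETS letters, chr2:73926860-73926889, plus strand: agggCGGAAGtgctctcggCGGAAGtgatc
SSBP1, ETS letters, chr7:141738352-141738381, plus strand: ttccctgtgcgcCGGAAGtgatcccctgcg
MPV17, ETS letters, chr2:27323084-27323113, minus strand: cgggacttgtggCGGAAGttcctaggccag
MGME1, YY1 letters, chr20:17968828-17968857, plus strand: agcccgagtccAAGATGGCagcgagcgctg

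The NRF1 letters were in the promoters of TFAM and POLG2, and in a promoter of 6.98% of the 27305 genes searched (5.78% of 35116 promoters). ETS letters were in those of POLG2, SSBP1, MGME1, DGUOK and MPV17, and in a promoter of 22.63% of all genes searched (19.46% of promoters). YY1 letters were in those of SSBP1 and MGME1, and in a promoter of 3.52% of all genes searched (2.89% of promoters). The window of DGUOK held the ETS letters in 2 places. No match in these promoters overlapped another. A match is a description of letters and does not show that a factor binds there. The factors themselves did not pass the test: log2 fold changes were -0.14 (SE 0.13) for NRF1, 0.02 (SE 0.117) for GABPA and -0.01 (SE 0.0803) for YY1, with edgeR adjusted p of 0.702, 0.97 and 0.98.

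Levels are given as the authors' FPKM, reads scaled for gene length and library size. The length behind it was 1455 bases for DGUOK, 2231 for MGME1, 4975 for SSBP1 and 5625 for MPV17. For SSBP1 and MPV17, all annotated exons together span 4988 and 5625 bases in GENCODE 29. Which transcripts the cells used was not measured, so the order of the genes depends on these gene models. Over the 4 libraries the highest mean level was that of MGME1, 56.4 FPKM, and the next was that of TFAM, 33.5 FPKM. DGUOK and TWNK followed at 18.2 and 18.1 FPKM, and their ranges overlapped. POLG at 9.16, SSBP1 at 8.06 and MPV17 at 7.47 FPKM came next. The range of SSBP1 overlapped those of POLG, MPV17, RRM2B and POLG2. Its rank above MPV17 rested on NC replicate 1, at 14.3 FPKM. The TYMP libraries had 5.64 and 6.07 FPKM of SSBP1 and NC replicate 2 had 6.23 FPKM, below the lowest MPV17 library at 7.04 FPKM. RRM2B at 6.33 and POLG2 at 6.00 FPKM also overlapped, and TK2 was lowest at 0.902 FPKM. Apart from SSBP1, whose highest library was 2.53 times its lowest, the highest library exceeded the lowest by 1.08 to 1.28 times.

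**Figure D1:**
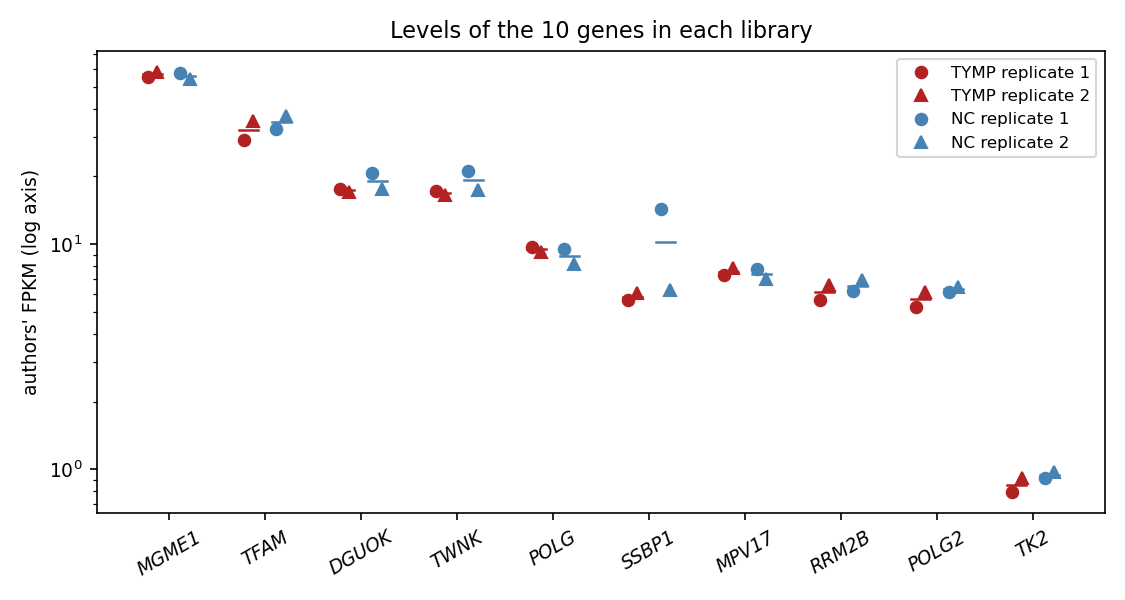
Level of each of the 10 genes in FPKM on a log axis, with TYMP libraries left of NC libraries; circles are replicate 1, triangles replicate 2 and bars the group means (n = 2 each). MGME1 was highest and TK2 lowest, and only SSBP1 had 1 library (NC replicate 1) at more than 2 times the others.

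POLG, the catalytic subunit of the mitochondrial DNA polymerase, had 1309 and 1275 reads in TYMP cells, against 1336 and 1129 in NC cells. Its level was 9.48 ± 0.388 FPKM in TYMP cells and 8.85 ± 0.91 FPKM in NC cells (SD, n = 2 each), and the groups overlapped. POLG (ENSG00000140521) maps to chromosome 15, minus strand, bases 89305198 to 89334861 of GRCh38. It shares 458 exon bases with FANCI on the opposite strand, which had 5467 and 5811 reads in TYMP cells against 5906 and 5552 in NC cells. No source states whether counting used strand, so reads of overlapping genes cannot be told apart.

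POLG2 encodes the accessory subunit that keeps the polymerase on its template. It had 388 and 466 reads in TYMP cells, against 476 and 486 in NC cells, and both TYMP libraries were lower than both NC libraries. The level was 5.70 ± 0.61 FPKM in TYMP cells and 6.30 ± 0.194 FPKM in NC cells (SD, n = 2 each). POLG2 (ENSG00000256525) maps to chromosome 17, minus strand, bases 64477785 to 64497036. The 2 subunits were not separated by group: the ratio of POLG to POLG2 in FPKM was 1.85 and 1.50 in TYMP cells, against 1.54 and 1.28 in NC cells, and the ranges overlapped.

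TWNK encodes Twinkle, the helicase that opens mitochondrial DNA ahead of the polymerase, and had the lowest p of the 10 genes. It had 1156 and 1143 reads in TYMP cells, against 1488 and 1195 in NC cells. Both TYMP libraries were lower than both NC libraries, and NC replicate 1 was the highest. The level was 16.9 ± 0.512 FPKM in TYMP cells and 19.3 ± 2.67 FPKM in NC cells (SD, n = 2 each). The log2 fold change was -0.21 (SE 0.111, 95% interval -0.45 to 0.03), with an adjusted p of 0.423 in edgeR's quasi-likelihood test. It was -0.05 without NC replicate 1 and -0.35 without NC replicate 2, so its size depended on which NC library was used. TWNK (ENSG00000107815) maps to chromosome 10, plus strand, bases 100987367 to 100994401, and shares 149 exon bases with MRPL43 on the opposite strand. MRPL43, a protein of the mitochondrial ribosome, had 392 and 385 reads in TYMP cells against 473 and 400 in NC cells, also highest in NC replicate 1.

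SSBP1, the single-strand binding protein of mitochondrial DNA, had the largest difference between group means, and it rested on 1 library. It had 455 and 505 reads in TYMP cells, against 1208 and 515 in NC cells. NC replicate 2 was level with both TYMP libraries, and NC replicate 1 stood alone. Scaled to library size by TMM, SSBP1 was 2.31-fold higher in NC replicate 1 than in NC replicate 2. This gap was larger than that of 99.3% of tested genes. Among the 7441 genes that averaged 20 CPM or more, 5 genes, SSBP1 included, had an NC gap of this size or more, and 4 had such a gap between the TYMP replicates. The log2 fold change was -0.83 (SE 0.555), and its 95% interval ran from 0.139-fold to 2.28-fold, with an adjusted p of 0.657 in edgeR's test. Without NC replicate 1 the log2 fold change was -0.10 (adjusted p 0.854). Without NC replicate 2 it was -1.31 and passed the threshold, but there 1 library stood for the NC group and the spread came from the TYMP pair alone. The group difference of SSBP1 therefore cannot be told apart from that 1 library. SSBP1 (ENSG00000106028) maps to chromosome 7, plus strand, bases 141738321 to 141787922. Its exons overlap those of TAS2R6P and WEE2-AS1, which had at most 2 reads in any library.

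MGME1 encodes an exonuclease that trims the ends of newly copied mitochondrial DNA. It had 1999 and 2176 reads in TYMP cells, against 2194 and 2010 in NC cells, and the groups overlapped. The level was 56.8 ± 2.14 FPKM in TYMP cells and 56.0 ± 2.57 FPKM in NC cells (SD, n = 2 each). Its 95% interval, 0.881-fold to 1.14-fold, was the narrowest of the 10 genes. MGME1 (ENSG00000125871) maps to chromosome 20, plus strand, bases 17968913 to 17991122, and shares 68 exon bases with SNX5 on the opposite strand.

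TFAM, which packages mitochondrial DNA and starts its transcription, had 2477 and 3111 reads in TYMP cells, against 2930 and 3261 in NC cells. It had the most reads of the 10 genes in every library. In both groups replicate 2 was higher than replicate 1, and the groups overlapped. The level was 32.1 ± 4.44 FPKM in TYMP cells and 34.9 ± 3.20 FPKM in NC cells (SD, n = 2 each), and the log2 fold change was -0.14 (SE 0.0999). It was -0.012 without TYMP replicate 1 and -0.28 without TYMP replicate 2. TFAM (ENSG00000108064) maps to chromosome 10, plus strand, bases 58385022 to 58399221. Its pseudogenes TFAMP1 and TFAMP2 were listed with 0 reads in all 4 libraries.

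The nucleotide supply genes include both deoxynucleoside kinases of mitochondria. TK2 phosphorylates thymidine and deoxycytidine there, which makes it the member that shares a substrate with thymidine phosphorylase. TK2 had 133 and 159 reads in TYMP cells, against 161 and 168 in NC cells. These were the fewest of the 10 genes, and the TYMP libraries were lower, with 2 reads between the nearest libraries of the 2 groups. The level was 0.856 ± 0.0889 FPKM in TYMP cells and 0.947 ± 0.0437 FPKM in NC cells (SD, n = 2 each). The log2 fold change of -0.16 had a 95% interval of -0.54 to 0.21. The authors' FPKM divides TK2 by a gene length of 10339 bases, against 7169 exon bases in GENCODE 29, so its level depends on the annotation. The same holds for POLG (8280 against 5980 bases) and POLG2 (4545 against 3388 bases). TK2 (ENSG00000166548) maps to chromosome 16, minus strand, bases 66508003 to 66552544.

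DGUOK phosphorylates deoxyguanosine and deoxyadenosine, the purine side of the same pathway. It had 415 and 417 reads in TYMP cells, against 512 and 424 in NC cells. NC replicate 1 was the highest, and the other NC library lay within the range of the TYMP libraries after scaling. The level was 17.4 ± 0.328 FPKM in TYMP cells and 19.1 ± 2.24 FPKM in NC cells (SD, n = 2 each). The ratio of DGUOK to TK2 in FPKM was 22.2 and 18.6 in TYMP cells, against 22.6 and 17.9 in NC cells. The balance of the 2 kinases thus overlapped fully between the groups. DGUOK (ENSG00000114956) maps to chromosome 2, plus strand, bases 73926826 to 73958961. Its antisense partner DGUOK-AS1, which shares 62 exon bases with it, had 43 and 54 reads in TYMP cells against 53 and 42 in NC cells.

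RRM2B, the p53-inducible small subunit of ribonucleotide reductase, serves cells outside S phase and the upkeep of mitochondrial DNA. It had 495 and 592 reads in TYMP cells, against 567 and 620 in NC cells, and the groups overlapped. The level was 6.11 ± 0.636 FPKM in TYMP cells and 6.55 ± 0.519 FPKM in NC cells (SD, n = 2 each). The ratio of RRM2, the S-phase small subunit, to RRM2B was 4.92 and 4.49 in TYMP cells, against 4.80 and 4.42 in NC cells. The ratio of RRM1, the large subunit, to RRM2B was 14.6 and 12.9 in TYMP cells, against 13.4 and 12.3 in NC cells. Neither ratio separated the groups. RRM2B (ENSG00000048392) maps to chromosome 8, minus strand, bases 102204502 to 102239118.

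MPV17 encodes an inner membrane protein whose loss depletes mitochondrial DNA, and its transport role is not settled. It had 665 and 734 reads in TYMP cells, against 740 and 658 in NC cells, and the groups overlapped. The level was 7.55 ± 0.358 FPKM in TYMP cells and 7.39 ± 0.495 FPKM in NC cells (SD, n = 2 each). Its relative MPV17L2 had 228 and 239 reads in TYMP cells, against 292 and 261 in NC cells. MPV17 (ENSG00000115204) maps to chromosome 2, minus strand, bases 27309492 to 27325680.

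Of the 10 genes, 0 had an adjusted p under 0.05 in edgeR's quasi-likelihood test, which called 3.32% of the 14380 genes tested (2.09% higher and 1.23% lower in TYMP cells). An unadjusted p under 0.05 was reached by 0 of the 10, against 14.7% of all genes tested, and DESeq2 and limma-voom also called 0 of them. The log2 fold change was below 0 for 7 of the 10 genes, against 50.9% of genes tested, and above 0 for POLG, MGME1 and MPV17. Their median log2 fold change was -0.15, beside -0.0051 over all genes tested. Without TYMP replicate 1 the median was -0.04 and without TYMP replicate 2 it was -0.19. Without NC replicate 1 it was -0.075 and without NC replicate 2 it was -0.09. With 1 library left out at a time, POLG2 ran from -0.26 to -0.06, DGUOK from -0.28 to -0.02, TK2 from -0.26 to -0.07 and RRM2B from -0.22 to -0.02 on the log2 scale. The groups did not overlap in CPM for POLG2, TWNK, SSBP1 and TK2, all lower in TYMP cells, and 43.6% of tested genes did not overlap (21.8% lower in TYMP cells). A missed threshold does not show that the levels were alike. The 95% interval lay within a change of 1.5-fold in either direction for 9 genes, all but SSBP1, and for 58.7% of all genes tested.

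**Figure D2:**
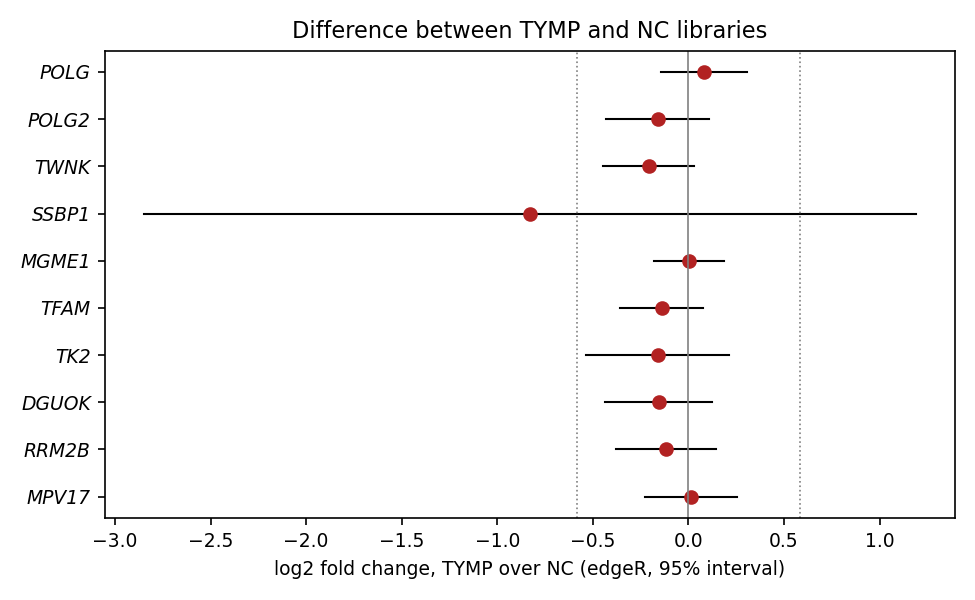
Log2 fold change of each of the 10 genes, TYMP over NC, with its 95% interval from edgeR's quasi-likelihood fit. All 10 intervals include 0, and that of SSBP1 (-2.85 to 1.19) is the widest.

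Base composition went with a difference between replicates 1 and 2. Replicate 1 of each group ran low for transcripts of low GC and high for transcripts of high GC. In the 4652 genes of lowest GC (25.1% to 43.6%), the median deviation from a gene's mean log2 CPM was -0.05 and 0.04 in TYMP replicates 1 and 2, against -0.05 and 0.07 in NC replicates 1 and 2. In the 4651 genes of highest GC (52.7% to 73.9%) it was 0.07 and -0.05 in TYMP replicates 1 and 2, against 0.06 and -0.08 in NC replicates 1 and 2. RRM2B and TFAM, with 36.4% and 38.4% GC, were lower in replicate 1 of both groups. POLG, with 58.5% GC, was higher in replicate 1 of both. SSBP1, at 39.1% GC, went against this pattern in the NC group, where replicate 1 was the higher. The part of GC in the spread of single genes was not tested. With GC content as an offset in edgeR, 0 of the 10 genes were called, against 11.6% of all genes tested.

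**Figure D3:**
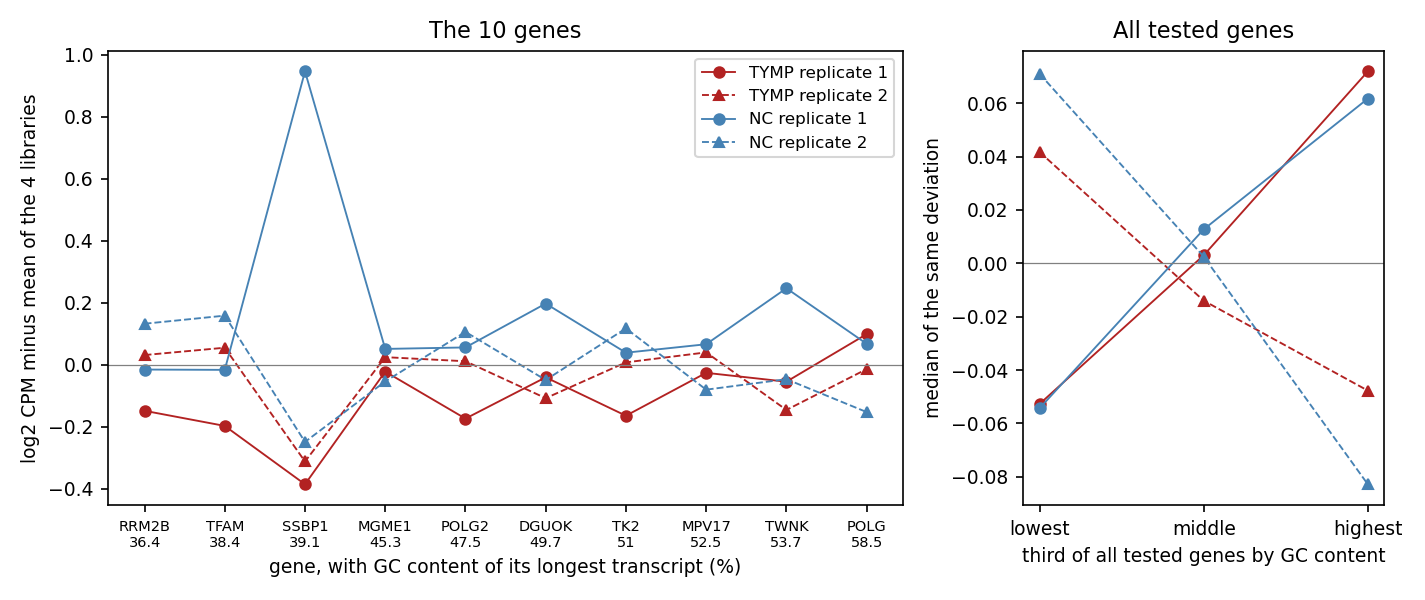
Left, deviation of each of the 10 genes from its mean log2 CPM over the 4 libraries, with genes in order of transcript GC content in percent; right, the median deviation of all tested genes of lowest, middle and highest GC content. Circles are replicate 1 and triangles replicate 2, red for TYMP and blue for NC. TFAM and RRM2B were lower in replicate 1 of both groups and POLG was higher, and SSBP1 stood apart in NC replicate 1.

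Beyond the 10 genes, 137 genes of related pathways were followed in 8 lists, and 130 of them were tested. Of these, 3 rose (TYMP itself among them), 2 fell and 125 did not pass the test, where 2.09% of all genes tested rose and 1.23% fell. Among 29 other genes of mitochondrial DNA replication, transcription and repair, 0 rose and 0 fell, with a median log2 fold change of -0.07. POLRMT, the mitochondrial RNA polymerase, had 61.3 ± 7.23 CPM in TYMP cells and 65.2 ± 12.0 CPM in NC cells (SD, n = 2 each). The lowest p of the list was that of ATAD3B, a nucleoid-associated membrane protein, with 618 and 509 reads in TYMP cells against 864 and 734 in NC cells. Its log2 fold change was -0.49 (SE 0.135), and its edgeR adjusted p of 0.0789 missed the threshold. ATAD3B passed it without a filter on low counts (adjusted p 0.00249), with the GC offset (0.000182), without TYMP replicate 1 (0.00837) and without NC replicate 2 (0.00113). It missed it without TYMP replicate 2 (0.507) and without NC replicate 1 (0.142). ATAD3B has the near-identical neighbour ATAD3A, so its count is uncertain. SLIRP, which stabilises mitochondrial mRNA, was next at -0.30 (adjusted p 0.221, or 0.0308 with the GC offset).

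Among 18 tested genes of other mitochondrial nucleotide supply, which include carriers, nucleotide kinases and SAMHD1, 0 rose and 0 fell, with a median of 0.01. ABAT, an aminotransferase with a described role in mitochondrial nucleoside metabolism, had 129 and 163 reads in TYMP cells against 96 and 85 in NC cells. Its groups did not overlap, and its edgeR adjusted p was 0.0937 at a log2 fold change of 0.70 (0.0173 with the GC offset). NME4, a nucleoside diphosphate kinase of mitochondria, had 48 and 36 reads in TYMP cells against 22 and 27 in NC cells, and an edgeR adjusted p of 0.306. NME6, of the same list, had 282 and 351 reads in TYMP cells against 357 and 352 in NC cells (log2 fold change -0.15). NT5M, the mitochondrial deoxynucleotidase that acts on thymidine monophosphate, had 3 or 4 reads per library and was not tested.

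In the cytosolic list of deoxynucleotide synthesis and salvage, 23 genes were tested, 1 rose, 1 fell and 21 did not pass, with a median log2 fold change of -0.09. The gene that rose was TYMP, and the gene that fell was UPP1, uridine phosphorylase, which splits uridine as thymidine phosphorylase splits thymidine. UPP1 had 1232 and 1183 reads in TYMP cells against 1979 and 1724 in NC cells, and both TYMP libraries were lower. UPP1 averaged 73.1 ± 4.80 CPM in TYMP cells and 110.9 ± 9.66 CPM in NC cells (SD, n = 2 each). Its log2 fold change was -0.60 (SE 0.0986, edgeR adjusted p 0.00379). The cytosolic counterparts of the mitochondrial kinases did not pass the test, and their groups overlapped. TK1, the S-phase thymidine kinase, had a log2 fold change of -0.10 (SE 0.0979), and DCK, deoxycytidine kinase, one of -0.18 (SE 0.169). RRM1 at -0.02 and RRM2 at -0.09 did not pass the test either. TYMS, thymidylate synthase, had 125 and 150 reads in TYMP cells against 151 and 117 in NC cells, and the groups overlapped.

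Among 17 tested genes of mitochondrial dynamics and nucleoid anchoring, 0 rose and 0 fell, with a median of -0.06. PHB1, a prohibitin of the inner membrane, had a log2 fold change of -0.21 and YME1L1, a protease there, one of -0.14, with adjusted p of 0.386 and 0.421 in edgeR's test. PHB1 was at -0.03 without NC replicate 1 (adjusted p 0.937) and at -0.37 without NC replicate 2 (adjusted p 0.0146). All 17 had a 95% interval within 1.5-fold. Among 14 regulators of mitochondrial biogenesis, 0 rose and 1 fell, with a median of -0.0090. MYC, a growth-promoting transcription factor, averaged 234.1 ± 14.5 CPM in TYMP cells and 302.4 ± 4.46 CPM in NC cells (SD, n = 2 each). Its log2 fold change was -0.37 (SE 0.081, edgeR adjusted p 0.0239). Without TYMP replicate 2 the adjusted p of MYC was 0.27, and on log2 FPKM with a pseudocount of 1 it was 0.0928.

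RRM2B is a p53 target, and 18 other p53 targets were listed beside it. HaCaT cells are known to carry mutant p53. Of the 16 tested, 2 rose, 0 fell and 14 did not pass, where 2.09% of all genes tested rose and 1.23% fell. The median log2 fold change of the 16 was 0.05, with 9 above 0 and 7 below. TP53INP1, a stress-induced p53 cofactor, had 161 and 209 reads in TYMP cells against 74 and 74 in NC cells. It was 2.51-fold higher (log2 fold change 1.33, SE 0.199, edgeR adjusted p 0.00203), but did not pass on log2 FPKM (adjusted p 0.0595 with a pseudocount of 1). CDKN1A, the cell cycle inhibitor p21, averaged 87.4 ± 8.03 CPM in TYMP cells and 65.8 ± 1.82 CPM in NC cells (SD, n = 2 each). Its log2 fold change was 0.41 (SE 0.0998, edgeR adjusted p 0.0423). CDKN1A did not pass without TYMP replicate 1 (adjusted p 0.41), in limma-voom (adjusted p 0.0562), without robust dispersion in edgeR (adjusted p 0.0529) or on log2 FPKM with a pseudocount of 1 (adjusted p 0.0824). DDB2 had the next lowest p of the list, at a log2 fold change of 0.35 (SE 0.0974, edgeR adjusted p 0.0838), and missed the threshold. MDM2 had 642 and 698 reads in TYMP cells against 621 and 775 in NC cells, and the groups overlapped.

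The mitochondrial genome's own transcripts are the product of the machinery that TFAM and POLRMT serve. The 13 protein-coding genes of that genome took 5.09% and 4.46% of all counted reads in TYMP cells, against 4.25% and 4.24% in NC cells. Both TYMP libraries were above both NC libraries, and the TYMP libraries differed from each other by more than the group means did. The mean share was 4.77% ± 0.45 in TYMP cells and 4.24% ± 0.00406 in NC cells (SD, n = 2 each), a difference of 0.529 percentage points. An exact two-sided permutation test gave p = 0.333, the smallest that 2 against 2 libraries can give. The difference was 0.212 points without TYMP replicate 1 and 0.847 points without TYMP replicate 2. Of the 13 genes, 0 passed edgeR's test, 10 had a log2 fold change above 0, and the range was -0.18 to 0.28. MT-CO2, a subunit of cytochrome oxidase, had the lowest p, at a log2 fold change of 0.28 (adjusted p 0.11). MT-CO2 passed with library size scaling (adjusted p 0.0436), without a filter (0.0347), with the GC offset (0.0131) and without TYMP replicate 2 (0.00779), and was at 0.16 without TYMP replicate 1 (0.684). MT-ND4 of complex I was at 0.26 (adjusted p 0.343). It was at 0.05 without TYMP replicate 1 (adjusted p 0.95), and passed without TYMP replicate 2 (0.45, adjusted p 0.0013) and without NC replicate 1 (0.35, adjusted p 0.00841). The library preparation selected polyadenylated RNA. The deposited table held no row named MT-RNR1 or MT-RNR2, so the mitochondrial rRNAs could not be analysed here.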

How the data were processed

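RNA of 4 HaCaT libraries was analysed. The deposited table gives raw read counts and FPKM per gene for each library. HISAT2, HTSeq 0.13.5 and the build GRCh38 are named, without roles, per the submitters' processing notes. Annotation, strand setting and filters were not given in the sources used here.

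Counts as deposited were tested in edgeR 4.0.16 (R 4.3.3) by quasi-likelihood. Genes were kept by filterByExpr, libraries were scaled by TMM, dispersion was robust, and the model held group alone. Benjamini-Hochberg adjustment over 14380 genes was used, with a threshold of 0.05. Standard errors were the log2 fold change divided by the root of F. The authors' FPKM was used for levels between genes, and on log2 with pseudocounts of 1 and 0.1 in limma 3.58.1, for genes of mean FPKM at least 1. DESeq2 1.42.0 and limma-voom were alternatives. CPM was computed from the counts with TMM factors. Coordinates, overlaps and GC content came from GENCODE 29, and 97% of tested genes had a GC value. Libraries of a group were not duplicates: chi-square per degree of freedom was 5.84 in TYMP and 7.39 in NC.

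The members and gene lists were chosen with earlier results of these data known. Named were all 10 members, TYMP, RRM1, RRM2, TYMS, TK1, DCK and POLRMT, and up to 4 called genes per list by smallest p, or 2 where none was called. NRF1, GABPA, YY1, NT5M, NME6, MDM2, SAMHD1, overlapping genes, paralogs and markers were named for their roles. DDB2 was named after its values were seen. The procedure was also run on simulated counts that held no effect of GC content or replicate number, and its outcome is not given here.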

Additional observations from a re-analysis of the deposited data

How the results depend on the processing

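No member was called under other scalings, filters, DESeq2, limma-voom, FPKM or GC offset. With the replicate number as a block, 2 members passed (TWNK, adjusted p 0.0414, and TFAM, 0.048), and with the block and GC offset 1 did (TWNK, 0.0283). Leaving out 1 library gave 0 to 1 (SSBP1). The labels do not say that a replicate number marks a shared batch. Deviations of same-numbered libraries had r = 0.152 over 14380 genes, and both replicates 1 shared the GC pattern, but with 2 pairs the numbers were not taken to pair the libraries. Crossed numbers were not run.

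Genes called in all, 478, were 732 without a filter, 2024 with the replicate block, 165 and 170 on log2 FPKM (pseudocounts 1 and 0.1), 1667 with GC offset, 2158 with replicate block and GC offset, and 393 to 716 without 1 library. The 5 listed genes called became 9, 23, 2 and 2, 15, 29, and 6 to 11 (11 without NC replicate 1, 10 without NC replicate 2) under the same settings. The GC offset settings were chosen after seeing the data. The members' median log2 fold change was -0.1921 to -0.0436 without 1 library. The difference in mitochondrially encoded share was 0.212 to 0.847 points without 1 library and 1.80 points as a share of summed FPKM.

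Directions near 0 turned. MGME1 was at -0.0039 without a filter and -0.0054 in DESeq2. Without 1 library, MGME1 ran from -0.0545 to 0.0577, MPV17 from -0.064 to 0.0913 and POLG from -0.0291 to 0.1992. The cause was not tested. The share as given holds no rRNA reads, so no other share without rRNAs was computed. On FPKM, 9 members were tested, since TK2 was under a mean of 1. With 2 libraries a group and 133 to 168 reads, TK2 has the least depth of the 10.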

Other observations

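Levels of a few genes of nucleotide metabolism, chosen after their values were seen, are given here. PNP, which splits purine nucleosides as thymidine phosphorylase splits thymidine, had 2 and 2 reads in TYMP cells, against 7 and 6 in NC cells, and was not tested. TYMS stood at 3.44 ± 0.366 FPKM in TYMP cells and 3.29 ± 0.538 FPKM in NC cells (SD, n = 2 each). TK1, the other S-phase enzyme of thymidylate supply, stood at 89.8 ± 5.52 FPKM in TYMP cells and 94.8 ± 10.7 FPKM in NC cells.

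Replicates of 1 group also differed widely for a few more genes of these lists, chosen in the same way. MIEF2, an outer membrane receptor of the fission machinery, had 1 and 0 reads in TYMP cells, against 72 and 7 in NC cells. TOP3A, a topoisomerase that separates copied mitochondrial DNA, had 17 and 79 reads in TYMP cells, against 104 and 12 in NC cells. MT-ATP8, encoded by the mitochondrial genome, had 167 and 132 reads in TYMP cells, against 229 and 81 in NC cells.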
